A study of Mus musculus with 12 samples.

Results

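The Runx genes encode the DNA-binding subunits of core-binding factor, and Cbfb encodes the partner protein shared by all of them. The 3 Runx genes (Runx1, Runx2 and Runx3) and Cbfb were read here as 4 of 21851 annotated mouse protein-coding genes. Each was followed from 100 kb before to 100 kb after its gene body in chromatin immunoprecipitation sequencing (ChIP-seq) peak lists of mouse mesenchymal stem cells (MSCs). The cells came from C57BL/6N mice of 3 to 5 months, had no engineered allele named in the labels, and were kept at 2% oxygen (hypoxia) or at 21% oxygen (normoxia). Per the study's methods they were taken from bone tissue of the hind limbs, sorted for the absence of CD45 and Ter-119 and the presence of Sca-1 and CD140a, and then divided between the oxygen levels, whereas the labels call them bone-marrow MSCs. The 12 libraries formed 6 groups of 2: acetylation of lysine 27 of histone H3 (H3K27ac), trimethylation of lysine 4 (H3K4me3) and an input control without immunoprecipitation, each at both oxygen levels. Peaks came as 4 pooled lists, with both libraries of a mark and oxygen level combined in each, so no value below has a replicate spread and no difference was tested. The read depth behind the lists is unknown.

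Core-binding factor works as a pair. The Runx subunit binds DNA through its Runt domain, and the Cbfb subunit strengthens that binding without touching DNA itself. Runx1 is required for blood stem cell formation, Runx2 is the master regulator of osteoblast differentiation, and Runx3 acts in T cells, sensory neurons and epithelia. Each Runx gene is read from a distal promoter (P1) and a proximal promoter (P2), which give proteins with different first amino acids. H3K4me3 is found mainly at active or poised promoters, and H3K27ac at active promoters and enhancers.

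The promoter sequences are shown first because the distal promoters of all 3 Runx genes share a stretch of sequence. The RefSeq windows ran from 250 bases before to 50 bases after the start on GRCm38, the assembly also known as mm10, and were searched for the RUNX binding motif, TGTGGT or TGCGGT, on both strands. Capitals mark these motifs, which appear as ACCACA or ACCGCA where they lie on the opposite strand. Windows of 6 promoters were in the RefSeq table, and the proximal Runx2 promoter was not among them.
Runx1 distal promoter, chr16:92826025-92826324, minus strand: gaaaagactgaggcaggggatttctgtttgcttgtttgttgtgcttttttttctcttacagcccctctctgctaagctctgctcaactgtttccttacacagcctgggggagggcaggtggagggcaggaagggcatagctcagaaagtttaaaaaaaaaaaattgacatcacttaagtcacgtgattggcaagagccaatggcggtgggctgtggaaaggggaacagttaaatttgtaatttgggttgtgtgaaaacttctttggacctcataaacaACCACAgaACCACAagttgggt
Runx2 distal promoter, chr17:44814578-44814877, minus strand: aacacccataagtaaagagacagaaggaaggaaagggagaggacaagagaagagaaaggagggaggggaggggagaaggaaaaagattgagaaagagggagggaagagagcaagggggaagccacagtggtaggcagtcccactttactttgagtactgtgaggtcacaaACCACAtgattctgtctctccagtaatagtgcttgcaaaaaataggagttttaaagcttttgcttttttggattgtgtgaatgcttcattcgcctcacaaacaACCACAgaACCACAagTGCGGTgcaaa
Runx3 distal promoter, chr4:135120395-135120694, plus strand: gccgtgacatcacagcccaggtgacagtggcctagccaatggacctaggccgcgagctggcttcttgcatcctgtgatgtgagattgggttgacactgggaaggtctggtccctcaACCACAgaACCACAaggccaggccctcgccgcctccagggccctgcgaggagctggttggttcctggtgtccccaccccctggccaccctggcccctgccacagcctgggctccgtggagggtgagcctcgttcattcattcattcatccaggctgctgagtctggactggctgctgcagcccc
Runx1 proximal promoter, chr16:92697280-92697579, minus strand: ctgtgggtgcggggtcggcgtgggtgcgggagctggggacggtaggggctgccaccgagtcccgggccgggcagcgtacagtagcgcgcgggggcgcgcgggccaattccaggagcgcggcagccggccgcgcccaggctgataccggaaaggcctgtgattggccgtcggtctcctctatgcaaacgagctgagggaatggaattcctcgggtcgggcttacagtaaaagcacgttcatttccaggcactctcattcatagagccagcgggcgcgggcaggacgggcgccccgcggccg
Runx3 proximal promoter, chr4:135152295-135152594, plus strand: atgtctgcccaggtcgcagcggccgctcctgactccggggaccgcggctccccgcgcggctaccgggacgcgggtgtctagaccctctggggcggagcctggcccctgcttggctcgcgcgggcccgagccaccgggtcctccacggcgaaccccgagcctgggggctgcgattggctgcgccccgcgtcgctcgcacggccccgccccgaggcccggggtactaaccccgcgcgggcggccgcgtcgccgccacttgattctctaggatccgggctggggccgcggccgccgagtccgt

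All 3 distal windows held a pair of RUNX motifs whose first bases were 8 bases apart, inside a run of 18 bases that was identical in the 3 genes: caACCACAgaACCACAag. In Runx1 and Runx2 the identical run was longer, at 22 bases. The pair began 28 bases after the RefSeq start in Runx1 and 23 bases after it in Runx2, but 134 bases before it in Runx3. These RefSeq starts lay 75 bp (Runx1), 170 bp (Runx2) and 7 bp (Runx3) from the GENCODE starts used below for the marks. The distances thus depend on the annotation. The spacing was kept while the distance to the start was not. The motif pair, ACCACANNACCACA on either strand, was chosen after the sequences had been seen. It was present in 4 of 21263 protein-coding promoter windows of this length (0.0188%), those of the 3 Runx genes and of Olfr24, an olfactory receptor gene. The full 18-base run was itself taken from the 3 Runx distal windows, and no other window held it.

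Single RUNX motifs were much more common. At least 1 was present in 21.6% of all windows and at least 2 in 2.64%, so 3 of 6 member windows with a motif say little on their own. The Runx2 distal window held 4 motifs, and 0.235% of all windows held at least 3. No motif was present in the proximal windows of Runx1 and Runx3 or in the window of Cbfb. The core of the hypoxia response element, ACGTG or GCGTG on either strand, had matches in both Runx1 windows and 0 in the others. Of all windows, 49.3% had at least 1. The 2 matches in the proximal Runx1 window were separate. The 2 in the distal window overlapped in CACGTG, which reads alike on both strands. A match is a sequence of letters and not a bound site.

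The promoters also differed in base composition. CpG content was given as the ratio of observed CpG dinucleotides to the number expected from the base composition, which is near 1 in CpG islands. It was 0.14 in the distal windows of Runx1 and Runx2 and 0.26 in that of Runx3, against a median of 0.57 over all windows. In the proximal windows it was 1.01 for both Runx1 and Runx3, and in the Cbfb window it was 0.99. The distal window was thus poorer in CpG than the proximal one in Runx1 and Runx3, the genes with both windows. The Runx3 distal window was not poor in G and C as such, at 63.7% against 45% in Runx1 and 45.3% in Runx2.

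The marks at the promoters were alike in Runx1 and Runx2 and different in Runx3. A start was counted as marked where a peak lay within 1000 bp of it, and the annotated starts of a gene within 1000 bp of each other were joined, which gave 8 start clusters in the 4 genes. With H3K27ac there were 6, and with H3K4me3 there were 5, in both the hypoxia and the normoxia lists. Over all 27486 start clusters of protein-coding genes in the hypoxia lists, 30.7% had both marks, 1.91% had H3K27ac without H3K4me3, 19.6% had H3K4me3 without H3K27ac and 47.8% had neither. The shares in the normoxia lists were 30.3%, 1.83%, 20.1% and 47.8%.

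The distal promoters of Runx1 and Runx2 were both in the rare class with H3K27ac and without H3K4me3. At Runx1 (ENSMUSG00000022952.17, chr16:92601466-92826149, minus strand) the distal start at position 92826149 lay inside an H3K27ac peak of 3000 bp, chr16:92824501-92827500. Each peak has a score between 50 and 1000, comparable only within its own list. Here it was 70 in the hypoxia list, where 21.8% of peaks scored lower. It was 50 in the normoxia list, the lowest value that occurs, so this peak was among the weakest calls there. The nearest H3K4me3 peak was 126649 bp away.

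At Runx2 (ENSMUSG00000039153.16, chr17:44495987-44814797, minus strand) the distal start at position 44814797 is the start of 4 annotated transcripts and gives the isoform associated with bone. It lay inside an H3K27ac peak of 4000 bp, chr17:44812501-44816500, with a score of 133 in both lists, above 68.5% of hypoxia peaks and 73.3% of normoxia peaks. The nearest H3K4me3 peak was 36297 bp away, at the start of Supt3, a transcription coactivator gene on the opposite strand that runs across the Runx2 distal promoter. The Runx2 distal peak was thus in the upper part of its lists, and the Runx1 distal peak was low in hypoxia and at the bottom in normoxia.

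The proximal promoters of both genes had both marks. The proximal Runx1 start, 128821 bp downstream of the distal one, lay in a 9000-bp peak at chr16:92690501-92699500 with an H3K27ac score of 1000 and an H3K4me3 score of 151 in both oxygen lists. Only 56 of the hypoxia H3K4me3 peaks (0.383%) were wider. A further annotated Runx1 start at position 92696125 lay in the same peak. The proximal Runx2 start, 78149 bp downstream of the distal one, lay in a 6500-bp peak at chr17:44732501-44739000 with scores of 133 for H3K27ac and 131 for H3K4me3 in both lists, and 1.42% of H3K4me3 peaks were wider.

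This order of starts was uncommon, though the pattern was taken from Runx1 and Runx2 themselves and was not planned. Of 1924 protein-coding genes with start clusters at least 10000 bp apart, the most upstream cluster had H3K27ac without H3K4me3 and a downstream cluster had both marks in 11 genes of the hypoxia lists (0.572%) and 10 of the normoxia lists (0.52%). In hypoxia these were Runx1, Runx2, Amotl1, Il1r1, Ndel1, Pdcd4, Prrx2, Rara, Tacc2, Tenm4 and Tmem219, named here after their values were seen. In normoxia Prrx2 and Tenm4 dropped out of the set and Psma6 entered it. Runx1 and Runx2 had the widest gaps between their starts in this set, and Runx2 had the most transcripts at the upstream start.

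Runx3 stood apart from both. At Runx3 (ENSMUSG00000070691.10, chr4:135120652-135177990, plus strand) the distal start at position 135120652 had neither mark, with the nearest H3K4me3 peak 30849 bp and the nearest H3K27ac peak 97349 bp away. The proximal start at position 135152496 lay in a 3000-bp H3K4me3 peak, chr4:135151501-135154500, with a score of 129 in both lists, equal to the list median. No H3K27ac peak lay within 65505 bp of it. Runx3 therefore carried the motif pair of the other distal promoters but no called mark over it, and H3K4me3 but no called H3K27ac at its CpG-rich promoter.

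Cbfb (ENSMUSG00000031885.14, chr8:105170674-105217989, plus strand) has 1 start cluster. It lay in a 4500-bp peak with both marks, chr8:105169501-105174000, scoring 1000 for H3K27ac and 134 for H3K4me3 in both lists. The partner subunit thus had both marks at its only promoter, as did 30.7% of all clusters.

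Read by CpG content, distal Runx3 had the state of most CpG-poor promoters, and distal Runx1 and Runx2 did not. Of 6798 RefSeq promoter windows with a CpG ratio under 0.3, 88.1% had neither mark in the hypoxia lists, as at distal Runx3, and 3.13% had H3K27ac without H3K4me3, as at distal Runx1 and Runx2. Of 10129 windows with a ratio over 0.6, 62.3% had both marks, as at proximal Runx1 and Cbfb, and 31.3% had H3K4me3 without H3K27ac, as at proximal Runx3. Within CpG-rich windows H3K27ac without H3K4me3 was found in 0.158%. These bounds on the ratio were set after the member values were known.

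The distal peaks themselves were also dense in RUNX motifs. The Runx1 distal peak held 7 motifs in 3000 bp, or 2.33 per kb, and the Runx2 distal peak held 9 in 4000 bp, or 2.25 per kb. The median over 3447 H3K27ac segments without H3K4me3 of 2000 to 5000 bp was 1 per kb, and 2.26% and 2.93% of them were at least as dense as the Runx1 and Runx2 peaks. Both counts include the motif pair shown above. At the proximal peaks the density was 1.22 per kb in Runx1 and 0.769 per kb in Runx2, and the Cbfb promoter peak held none.

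**Figure D1:**
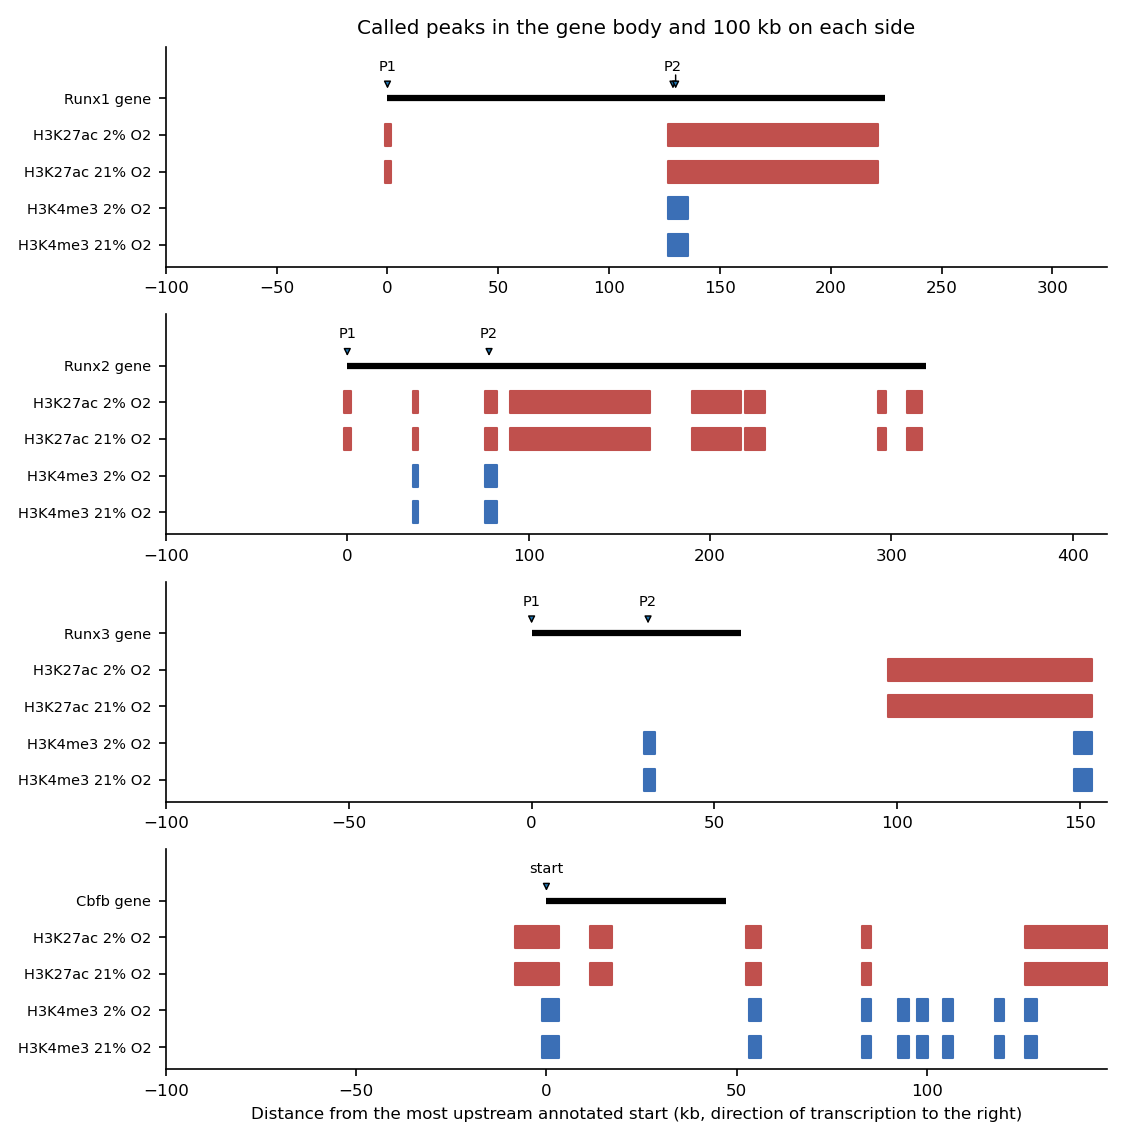
Peaks of the 4 lists at the 4 genes, by distance in kb from the most upstream annotated start, with transcription running to the right. The black bar is the gene body, arrowheads mark annotated starts (the unlabelled one in Runx1 is a further start), and touching peaks appear as a single block. Runx1 and Runx2 hold long H3K27ac blocks downstream of P2, while the Runx3 body holds H3K4me3 but no H3K27ac.

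Downstream of the proximal promoters, Runx1 and Runx2 lay in some of the broadest H3K27ac regions of the lists. In Runx1 a single H3K27ac peak of 85500 bp, chr16:92605001-92690500, ran over exons and introns from the proximal promoter peak almost to the gene end, and 20 of 15203 peaks in the hypoxia list (0.132%) were wider. The median peak was 3500 bp wide. Joined with the touching promoter peak, it formed a region of 94.5 kb, and 19 of 12835 joined regions in hypoxia (0.148%) and 19 of 12654 in normoxia (0.15%) were wider. An antisense gene, Gm26626, lies within it, and peaks carry no strand.

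The H3K27ac in Runx1 was almost all on one side of P2. Peaks covered 96.3% of the 95.9 kb from the proximal start to the gene end, and 2.97% of the 129 kb between the distal and proximal starts. In the 100 kb upstream of the gene they covered 1.35%, all of it in the distal promoter peak, and in the 100 kb downstream they covered 0%. No other protein-coding gene starts in the Runx1 window.

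In Runx2 the H3K27ac was spread over more separate peaks. The widest, chr17:44648001-44725000, was 77000 bp long, started downstream of the proximal promoter peak and overlapped the antisense gene Runx2os2. In the hypoxia list 26 peaks (0.171%) were wider. Its score was 124 in hypoxia and 102 in normoxia, higher than 56% and 49.6% of the lists, so this was a wide region with a middling score. The next widest were chr17:44597501-44625000 (27500 bp, scores 87 and 77) and chr17:44584501-44595500 (11000 bp, scores 79 and 76). Both lay inside the gene, the first over exons and introns and the second within introns.

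The other Runx2 peaks were short. Peaks of 8500 bp (chr17:44498001-44506500, score 74 in both lists) and 4500 bp (chr17:44518001-44522500, scores 134 and 132) lay in introns near the gene end. The peak at the Supt3 start, chr17:44776001-44778500, lies between the Runx2 promoters and had both marks. H3K27ac covered 55.1% of the 241 kb from P2 to the gene end, and 9.15% of the 78.1 kb between the promoters. As in Runx1, 0% of the 100 kb downstream of the gene was covered.

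Set against genes of 0.5 to 2 times the same length, both bodies were heavily covered. H3K27ac peaks covered 42.8% of the Runx1 body in both oxygen lists. The median over 1842 genes of like length was 1.06% in hypoxia, and 3.8% of them had more. For Runx2 the covered share was 43.8% in both lists, with a median of 0.695% over 1217 genes and 3.2% of them higher. Cbfb had 19.7%, with a median of 2.14% over 6456 genes and 11.8% of them higher.

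Runx3 had 0%, as did 44.4% of the 5824 genes of its length. The Runx3 window did hold much H3K27ac, 21.8% of its bases, but all of it lay downstream at the neighbouring gene Clic4, which encodes a chloride channel protein. There a 51000-bp peak, chr4:135218001-135269000, and a touching 5000-bp peak with both marks at the Clic4 start, chr4:135269001-135274000, scored 1000 for H3K27ac in both lists. The window value alone would place Runx3 beside Runx1 (23%), Runx2 (27.3%) and Cbfb (18.4%), and the gene body value does not.

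**Figure D2:**
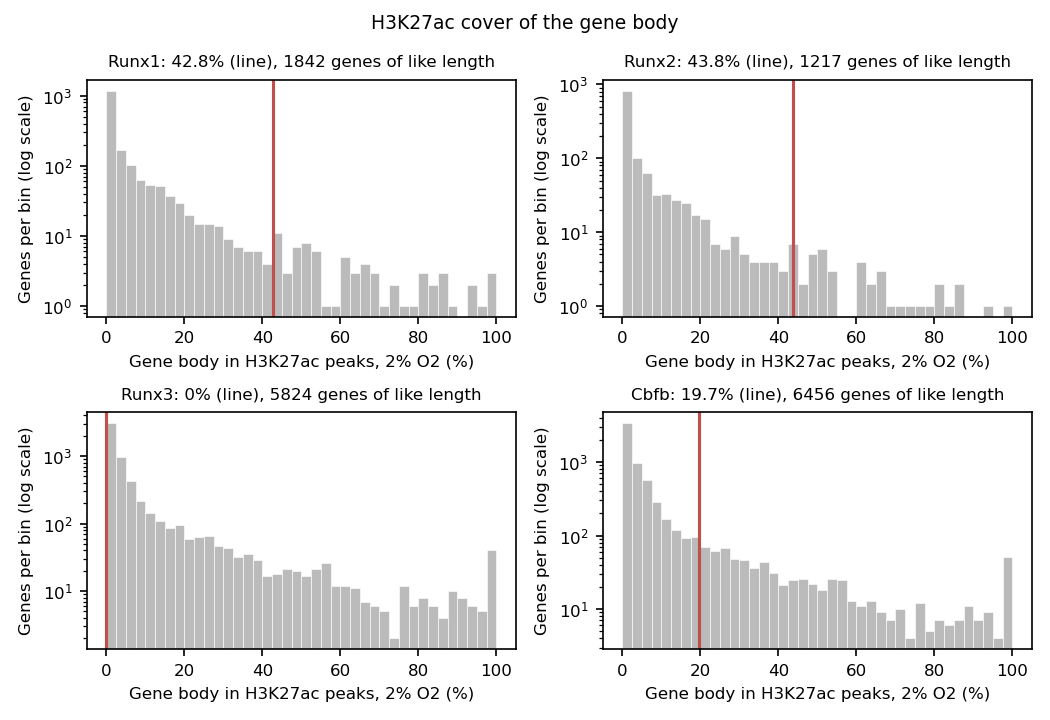
Share of the gene body (%) covered by H3K27ac peaks at 2% oxygen, with bars counting genes of 0.5 to 2 times the member's length on a log scale and the line at the member's own value. Runx1 (42.8%) and Runx2 (43.8%) lie far to the right of most genes, Cbfb (19.7%) lies between, and Runx3 is at 0%.

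The Cbfb window was the most crowded with genes. Inside the gene, H3K27ac extended from the promoter peak into the first part of the body, and a separate 6000-bp peak within introns, chr8:105182001-105188000, was the weakest of its peaks, with a score of 63 in hypoxia and 65 in normoxia. Directly upstream of the promoter peak lay a 7000-bp H3K27ac peak over Gm3830, chr8:105162501-105169500, with scores of 109 and 95. The starts of 12 other protein-coding genes lie in the window, against 0 for Runx1 and 1 each for Runx2 and Runx3.

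All other Cbfb-window peaks lay downstream of the gene. Peaks with both marks stood at the starts of D230025D16Rik, B3gnt9 and, as a pair, E2f4 and Exoc3l, and peaks with H3K4me3 only stood at Fbxl8 and Tradd, Hsf4, Nol3 and 4931428F04Rik. The H3K4me3 peaks of the window numbered 8, of which only the promoter peak touches Cbfb itself. A 1000-bp H3K27ac peak, chr8:105223001-105224000, touched the D230025D16Rik peak. The widest H3K27ac peak, chr8:105299501-105320000 (20500 bp), lay over E2f4 and the Elmo3 start. These values belong to the neighbourhood as much as to Cbfb.

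Between 2% and 21% oxygen no peak at the 4 genes was gained or lost. The windows held 26 distinct segments, 21 with H3K27ac and 13 with H3K4me3, and each was present in both lists of its mark with the same boundaries. Runx1 had 3 H3K27ac peaks, Runx2 had 8, Runx3 had 2 and Cbfb had 8, and the H3K4me3 peaks numbered 1, 2, 2 and 8. A count of 0 in 21 H3K27ac peaks allows a share of up to 14.3%, and 0 in 13 H3K4me3 peaks allows up to 23.1%. These limits cover counting error only and treat touching peaks as independent. Joining peaks within 1000 bp left 16 H3K27ac peaks in each list.

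The background shares were low as well. Over the whole lists, 3.87% of H3K27ac hypoxia peaks had no base in common with the normoxia list and 1.47% of normoxia peaks had none in common with the hypoxia list. For H3K4me3 the shares were 0.0411% and 0.0205%. Of all protein-coding genes, 14.2% had a condition-specific H3K27ac peak in the gene body or the 100 kb on each side, against 0 of the 4 members. With so few members and such shares, 0 is not a result particular to them.

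The nearest condition-specific H3K27ac peaks were far off. For Runx1 they were 4708352 bp (hypoxia only, over Mx2) and 4815966 bp (normoxia only) from the gene body. For Runx2 the nearest was a normoxia-only peak of 9000 bp over Rcan2, chr17:44007001-44016000, at 479987 bp with a score of 61, and the nearest hypoxia-only peak was 920704 bp away. For Runx3 the distances were 1286011 bp (hypoxia only) and 1470511 bp (normoxia only, over Ephb2). For Cbfb a hypoxia-only peak over Dync1li2, chr8:104432501-104441000, lay 729674 bp away and a normoxia-only peak over Cdh3 lay 1311512 bp away.

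The scores of the shared H3K27ac peaks were read as ranks within each list, that is, as the percentage of peaks of the list that scored lower. The rank was higher in hypoxia at 7 of the 21 member peaks (33.3%) and higher in normoxia at 14 (66.7%). Over all 14614 shared H3K27ac peaks it was higher in hypoxia at 30% and in normoxia at 69.7%, so the members were close to the background. The direction depends on the scale: the deposited score itself was higher in hypoxia at 10 member peaks (47.6%), equal at 9 and higher in normoxia at 2 (9.52%), against 39.9% and 16.6% of all shared peaks. No direction between the oxygen levels is therefore drawn for the members. All 13 H3K4me3 peaks had equal scores. The H3K4me3 lists were nearly alike as wholes, with a median score of 129 and 2065 peaks at 1000 in each. Equal H3K4me3 scores are therefore not read as a trait of the members. The definition of the score is not given in the sources used here, and without replicates its differences have no error.

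A few single peaks differed more in rank. The Cbfb-window peak over the Elmo3 start scored 1000 in hypoxia, the ceiling that 22.2% of that list shares, and 103 in normoxia, where it ranked above 50.2% of peaks instead of 77.8%. Among the members' own promoters, the Runx1 distal peak had the widest gap, from 21.8% of peaks scoring lower in hypoxia to 0% in normoxia. The 85500-bp Runx1 peak scored 142 in hypoxia (above 76.3% of the list) and 1000 in normoxia (above 81.1%). Because no score lies between 160 and 1000, that step is small as a rank, and the 6 member peaks at 1000 in both lists also went from 77.8% to 81.1%.

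**Figure D3:**
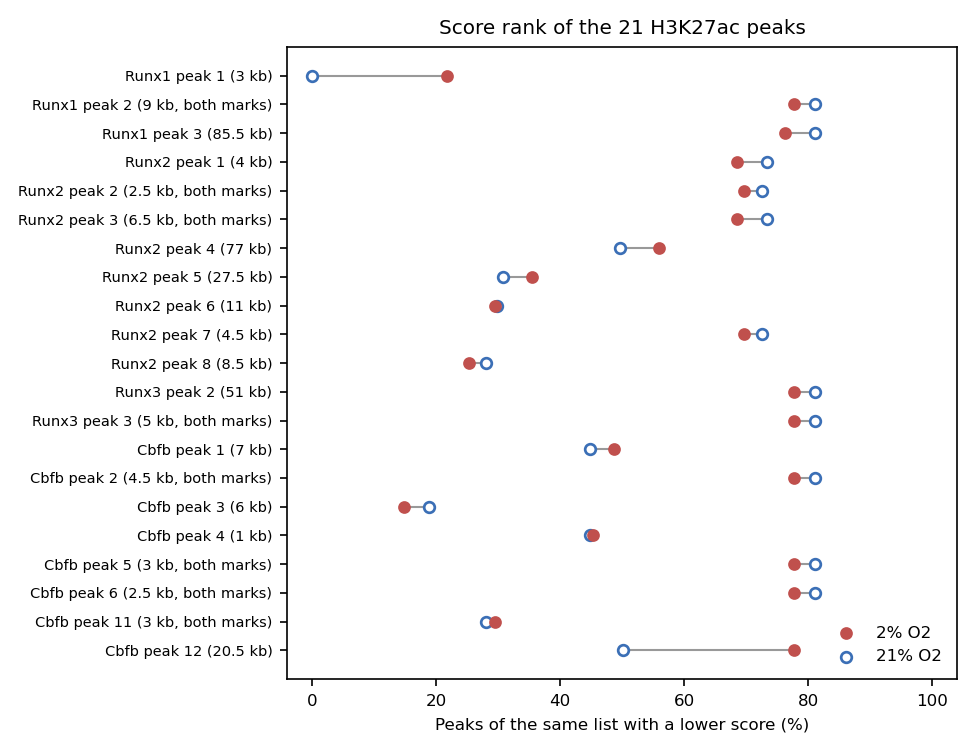
Each line is 1 of the 21 H3K27ac peaks of the gene windows, numbered in each window along the direction of transcription, with peak width in kb. Points give the percentage of peaks in the same list with a lower score, filled for 2% oxygen and open for 21% oxygen. The Runx1 distal promoter peak (peak 1) and the Cbfb-window peak over Elmo3 (peak 12) have the widest gaps, and peaks at 1000 in both lists sit at 77.8% and 81.1%.

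A list of 30 partners and regulators of Runx proteins gave the cofactor setting. It held Smad proteins that carry BMP and TGF-beta signals, acetyltransferases, Tle and histone deacetylase corepressors, Yap1 and Wwtr1 of the Hippo pathway, the Runx2 inhibitors Twist1 and Twist2, and ubiquitin ligases. Both marks were present at a promoter of 27 of 30 genes (90%), against 36.3% of all protein-coding genes in hypoxia. Hdac3, Twist2 and Hey1 had H3K4me3 without H3K27ac, and no gene of the list lacked both. The list was chosen for known links to Runx proteins and its share is a description.

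Condition-specific H3K27ac peaks lay in the windows of 4 of the 30 (13.3%), close to the 14.2% of all genes, and all were in hypoxia only. At Ets1, a transcription factor that binds DNA together with Runx1, the peak lay inside the gene (chr9:32698001-32702000, score 52). At Cebpb, a factor of adipocyte and osteoblast differentiation, a 15000-bp peak lay 29915 bp away (chr2:167644001-167659000, score 56). At Stub1, a ubiquitin ligase, it was 77597 bp away (chr17:25911001-25917500, score 50), and at the acetyltransferase gene Ep300 92424 bp away (chr15:81744501-81747000, score 60). These scores were at or near the floor of the list, with at most 11.8% of hypoxia peaks lower, and only the Ets1 peak had the list gene as its nearest start.

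The 30 Runx target genes were divided. Both marks were present at a promoter of 9 genes (30%), and 14 genes had neither mark (46.7%), against 36.3% and 40% of all genes. Col1a1, the main bone collagen gene, had both marks. Sp7, the osteoblast factor that acts after Runx2, Alpl, the alkaline phosphatase of mineralisation, and Tnfsf11, which encodes the osteoclast factor RANKL, had H3K4me3 without H3K27ac. The late matrix genes Spp1, Ibsp and Bglap and the collagenase gene Mmp13 had neither mark. Csf1r, a Runx1 target of macrophages, was the only target with H3K27ac alone. No promoter of either list had a different state at the 2 oxygen levels, as against 172 of all 21851 genes.

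Hypoxia-only H3K27ac peaks lay in the windows of 7 of the 30 targets (23.3%), against 11.7% of all genes, and normoxia-only peaks in none, against 2.9%. The hypoxia-only share was 25% (3 of 12) in each of the mesenchymal and haematopoietic marker lists and 0% (0 of 8) in the endothelial list. A share above that of all genes was thus not seen in the targets alone, though the marker lists are small. Spi1 and its peak count in both the target and the haematopoietic list. At Alpl the peak was inside the gene (chr4:137792501-137795000, score 53). At Fgfr3, a growth factor receptor of cartilage and bone, there were 3 peaks, chr5:33656001-33659500 with a score of 125, above 56.8% of the list, and a touching pair at chr5:33694501-33696500 (score 74) and chr5:33696501-33700000 (score 53). The pair had Fgfr3 as its nearest protein-coding start, at 25174 and 21674 bp from the gene.

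The remaining targets were less directly tied to their peaks. The osteocalcin genes Bglap and Bglap2 are neighbours and share the peak at chr3:88411001-88414000 (score 55), whose nearest start is that of Pmf1, and Bglap had another at chr3:88480001-88487000 (score 60), nearest to Lmna. The peak of Mmp14, a membrane-bound matrix protease, was nearest to Lrp10 (chr14:54463001-54465500, score 86). That of Spi1 was nearest to Celf1 (chr2:91012501-91019500, score 86). Fgfr2 is annotated over 2.96 Mb, and its peaks at chr7:130935001-130938000 (score 50) and chr7:132655501-132662500 (score 64) lie nearest to Htra1 and Lhpp. Of the 10 distinct peaks, 3 had the list gene as the nearest start. None of these shares was tested.

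**Figure D4:**
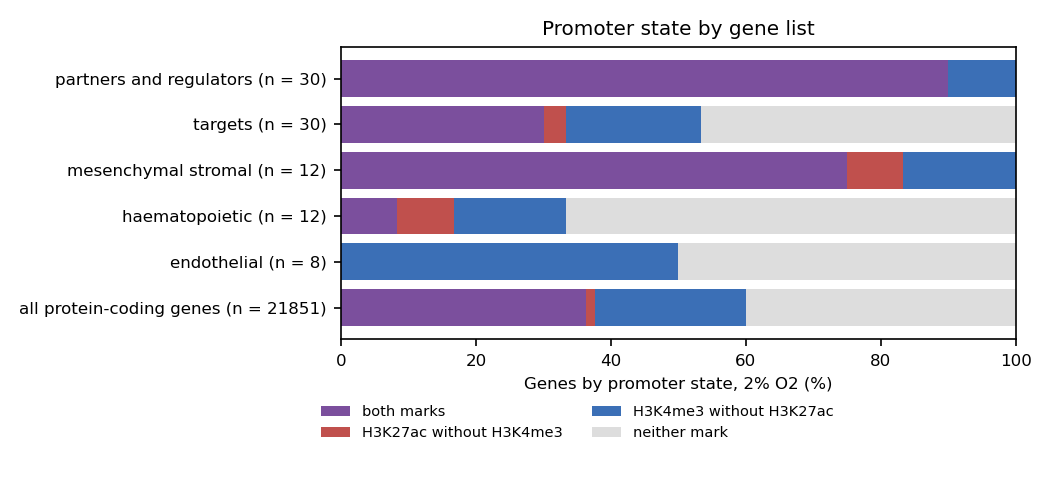
Share of genes (%) in each promoter state at 2% oxygen for the Runx partner and target lists, 3 cell type marker lists and all protein-coding genes, with the number of genes in brackets. Both marks are present in 90% of partners, 30% of targets and 36.3% of all genes.

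Marker genes were read to check the labelled cell type, since Runx1 and Runx3 are also blood cell genes. Of 12 mesenchymal markers, 9 had both marks at a promoter, among them Pdgfra and Prrx1. Ly6a, which encodes Sca-1, had H3K27ac alone, and Eng and Twist2 had H3K4me3 alone. Of 12 haematopoietic markers, 8 had neither mark, among them Ptprc (CD45), Spi1 and Gata1, while Cd68 had both and Csf1r had H3K27ac alone. None of 8 endothelial markers had H3K27ac, and 4 had H3K4me3. In bulk chromatin, marking in a few cells and weak marking in all cells cannot be told apart.

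The genes whose windows were most like those of the members in the 4 lists were sought among genes of 0.5 to 2 times the member's length. Likeness was measured on the covered share of the window, as the smallest sum of absolute differences over the 4 lists in percentage points. For Runx1 they were Palld (0.774 points) and Creb3l2 (1.83), and for Runx2 Rbms1 (0.715) and Atxn1 (0.968). For Runx3 they were Gucy2d (0.184) and Trmt9b (0.449), and for Cbfb Dmc1 (1.37) and Crebl2 (1.64). The measure rests on 4 values per gene and says nothing of where in the window the peaks lie.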

How the data were processed

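Peaks of H3K27ac and H3K4me3 were taken from 4 deposited lists, with the libraries of a group combined. Per the study's methods, the authors aligned reads to mm10 with bowtie2, handled duplicates with Picard, and segmented each mark with chromstaR, whose differential mode compared hypoxia with normoxia. The deposited values were peak positions and a score set by the authors (50 to 160, or 1000), whose definition is not given in the sources used here. Shared peaks had identical boundaries, all multiples of 500 bp. A difference in calling between oxygen levels thus appears only as a peak present in a single list. Per the methods, the authors also mapped yeast spike-in fragments and compared H3K27ac between oxygen levels with edgeR. Those results were not used here, and a peak in both lists can still differ in signal. Broad regions can be cut into touching peaks.

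Genes and starts came from GENCODE M21 basic on GRCm38, and promoter windows from RefSeq on the same assembly. Of 30 partner and 30 target symbols, all matched. Peaks within a gene body and 100000 bp on each side were counted with a minimum overlap of 1 bp, and a peak was condition-specific if it shared no base with the other list of its mark. No test was run, since values per replicate were not analysed here. Genes named were all those of the partner and target lists with a condition-specific peak, those starting within 1000 bp of a member's peak, each member's promoter peaks and 3 widest H3K27ac peaks, 8 targets, and the 2 likest genes per member. Any other gene was picked with its values in view. The members and lists were chosen with earlier results of these data known. Interval functions were tested on simulated data. Python 3.11.15, NumPy 2.4.6, SciPy 1.17.1, pysam 0.24.0 and matplotlib 3.10.9 were used. Alternatives were narrower windows, a score filter, joined peaks, other distances to the start and longer promoter windows. Comparing deposited scores instead of ranks was added after the data had been seen. The input libraries entered only through the authors' calling.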

Additional observations from a re-analysis of the deposited data

How the results depend on the processing

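Condition-specific H3K27ac peaks at the 4 genes stayed at 0 under every alternative run, and promoters with H3K27ac (6) and with H3K4me3 (5) stayed within 1.5 times those counts. Leaving out the lowest-scoring 25% of peaks removed the Runx1 distal promoter peak and the intronic Cbfb peak from both lists. Narrower windows moved the totals, by their construction. H3K4me3 peaks fell from 13 in each list to 8 with 50 kb on each side and 6 with 20 kb. The H3K27ac-covered share rose from 23.5% in each list to 26% and 32.2%, while in Runx3 alone it went from 21.8% to 6.35% and 0%. Partners with a condition-specific peak went from 4 to 2 and 1 with the narrower windows, and to 9 without the lowest-scoring 25%, where a peak kept in 1 list only counts as condition-specific. Targets with such a peak went from 7 to 6 and 3 with the narrower windows, and to 10 without the lowest-scoring 25%. Deposited scores were compared instead of ranks after the data had been seen. Member peaks higher in normoxia then went from 14 to 2 and those higher in hypoxia from 7 to 10. The median H3K27ac score was 102 in the normoxia list and 111 in the hypoxia list. Every member peak with equal scores ranked higher in normoxia. Why the scores of the lists differ was not tested. No paired analysis was possible because the libraries of a group were merged into a single list of peaks, and for the same reason no library could be left out.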
